A study of Mus musculus with 6 samples.

Results

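The 10 genes described here are immediate-early genes: Egr1, Egr2 and Egr3, Nr4a1, Nr4a2 and Nr4a3, Ier2, Ier3 and Ier5, and Dusp1. They were chosen by gene name, and all 10 were found among the 55421 genes of the count table. All 10 also passed the filter on low counts that left 18140 genes for testing. RNA-seq was performed on DM1 myoblasts, which here are mouse C2C12 cells, an established myoblast line, stably carrying 200 CUG repeats behind a GFP reporter as a model of myotonic dystrophy type 1. The control group (3 libraries) carried the empty vector and the miR-322/-503 group (3 libraries) overexpressed both miRNAs. All libraries were made on day 4 of myoblast differentiation, in a low-serum medium that was renewed daily. The comparison asks which transcripts differed in level when miR-322/-503 was overexpressed in differentiating DM1 myoblasts. Both groups are drug-selected stable lines, so a difference between the lines and an effect of the miRNAs cannot be told apart. The hour of harvest after the last medium change is not given in the sources used here.

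Immediate-early genes are transcribed within minutes of a stimulus such as serum, growth factors, calcium or stress, without new protein synthesis. Kinases of the MAP kinase cascades and protein kinase A act on factors that are already bound at their promoters, mainly serum response factor at CArG boxes and CREB at cyclic AMP response elements. Their transcripts are short-lived. Egr proteins are zinc finger transcription factors, Nr4a proteins are orphan nuclear receptors that act without a known natural ligand, and Dusp1 is a phosphatase that switches MAP kinases off. In muscle cells, serum and mitogen signals that induce these genes favour proliferation, and serum withdrawal favours differentiation.

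The mature sequences of the overexpressed miRNAs are shown because their seeds define which transcripts they can pair with. Both are encoded on the minus strand of the X chromosome, mmu-miR-322-5p at chrX:53054306-53054327 and mmu-miR-503-5p at chrX:53054027-53054049 (RefSeq, GRCm38.p6). Capitals mark the seed, bases 2 to 8, which both share except for its last base.
mmu-miR-322-5p: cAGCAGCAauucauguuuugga
mmu-miR-503-5p: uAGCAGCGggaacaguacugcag

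The longest annotated 3' UTR of each of the 10 genes was searched, and other parts of the transcripts were not. Only Egr3 held a match to a whole seed, TGCTGCT, the complement of bases 2 to 8 of miR-322-5p. Egr2 and Ier2 held 1 match each to GCTGCT, the complement of the shared bases 2 to 7, and the other 7 genes held neither. Among 13534 tested genes with an annotated 3' UTR, 24.2% held TGCTGCT, 4.82% held CGCTGCT, the complement for miR-503-5p, and 44.8% held GCTGCT. The matches are shown in 30 bases of GRCm38 sequence, with the match in capitals. They are shown because they are the letters in these 3' UTRs that either seed could pair with. They lie at chr10:67541467-67541496 (plus strand) for Egr2, at chr14:70080670-70080699 (plus strand) for Egr3 and at chr8:84661612-84661641 (minus strand) for Ier2. A match is a description of the letters and not a measured binding site.
Egr2: agcctcatcctgGCTGCTgcactctggccc
Egr3: agctgcagtggTGCTGCTgccgccgcctcg
Ier2: tcgcccccacagGCTGCTgtgggtgagcct

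Promoters of 7 of the 10 genes were in the RefSeq table (GRCm38.p6), namely Egr2, Nr4a1, Nr4a2, Nr4a3, Ier3, Ier5 and Dusp1. The 250 bases before each transcription start were searched on both strands for the CArG box, the cyclic AMP response element TGACGTCA, its core TGACG and the Egr site GCGNGGGCG with G or T at N. The core lies within the full element, so a full element counts as a core match on each strand. The windows of Nr4a1, Nr4a2 and Nr4a3 each held 4 cores, and of 32851 promoter windows 17.8% held at least 1 core and 0.137% held 4 or more. Egr2 had 5 windows, for different annotated starts, of which 4 held a CArG box, 3 of them the same box, and 1 held no motif. The window shown for Egr2 held its CArG box 72 bases before the start, and 1.47% of single windows held one. The window of Dusp1 held a full cyclic AMP response element (1.55% of windows), and that of Nr4a1 also held an Egr site (3.06% of windows). No motif searched was in the windows of Ier3 and Ier5.

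The promoter sequences below run 5' to 3' on the strand of the gene, with the motifs in capitals, and they are shown so that genes that fell far (Nr4a1, Egr2) and less far (Nr4a2, Dusp1) can be read beside Ier5. Bases that lie in an annotated exon of the gene were left off, which shortens the window of Dusp1 to 203 bases and that of Nr4a3 to 98 bases with 3 of its 4 cores. The positions are chr10:67537619-67537868 (plus) for Egr2, chr15:101266596-101266845 (plus) for Nr4a1, chr2:57124004-57124253 (minus) for Nr4a2, chr4:48045055-48045152 (plus) for Nr4a3, chr17:26508520-26508722 (minus) for Dusp1 and chr1:155099637-155099886 (minus) for Ier5.
Egr2: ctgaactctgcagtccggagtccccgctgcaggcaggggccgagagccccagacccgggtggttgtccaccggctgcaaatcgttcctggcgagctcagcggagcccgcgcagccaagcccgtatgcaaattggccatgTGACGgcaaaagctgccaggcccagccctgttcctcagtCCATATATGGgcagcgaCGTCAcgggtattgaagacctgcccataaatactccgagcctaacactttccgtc
Nr4a1: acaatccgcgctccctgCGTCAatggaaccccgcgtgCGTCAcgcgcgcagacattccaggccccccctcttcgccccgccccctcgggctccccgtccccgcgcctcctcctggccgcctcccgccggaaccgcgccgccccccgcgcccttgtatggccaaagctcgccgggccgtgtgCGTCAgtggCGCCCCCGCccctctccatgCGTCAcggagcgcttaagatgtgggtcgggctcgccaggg
Nr4a2: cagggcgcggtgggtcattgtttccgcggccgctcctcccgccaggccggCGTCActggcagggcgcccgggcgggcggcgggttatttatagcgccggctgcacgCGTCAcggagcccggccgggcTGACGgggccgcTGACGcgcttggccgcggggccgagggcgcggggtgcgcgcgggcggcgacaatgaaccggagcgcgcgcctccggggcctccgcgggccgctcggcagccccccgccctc
Nr4a3: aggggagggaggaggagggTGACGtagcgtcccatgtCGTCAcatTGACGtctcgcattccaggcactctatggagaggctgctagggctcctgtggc
Dusp1: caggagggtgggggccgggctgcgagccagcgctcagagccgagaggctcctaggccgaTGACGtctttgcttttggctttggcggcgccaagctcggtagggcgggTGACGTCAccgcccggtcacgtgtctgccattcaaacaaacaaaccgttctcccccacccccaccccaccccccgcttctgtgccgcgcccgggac
Ier5: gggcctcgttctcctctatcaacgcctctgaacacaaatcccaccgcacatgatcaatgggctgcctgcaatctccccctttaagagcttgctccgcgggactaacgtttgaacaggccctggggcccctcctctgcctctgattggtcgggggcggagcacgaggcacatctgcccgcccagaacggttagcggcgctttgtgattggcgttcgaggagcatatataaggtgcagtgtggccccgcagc

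The libraries held between 73532084 and 92157388 estimated counts. How many counts 1 read pair contributed is not given in the sources used here, so a printed count is not a number of molecules or read pairs. Mitochondrial genes took 5.21% to 7.14% of control counts and 7.39% to 9.72% of miR-322/-503 counts, and its part in the results below was not tested. The precursor genes of the overexpressed miRNAs were hardly counted in these libraries, Mir322 with 1, 7 and 2 control counts against 17, 0 and 3 under overexpression, and Mir503 with 1, 1 and 2 against 6, 4 and 5, so the overexpression could not be read from them. Of the myogenic factors, Myod1 had a log2 fold change of 0.37 ± 0.10 (SE, adjusted p = 0.027) and Myog, which drives terminal differentiation, fell by 0.74 ± 0.09 (SE, adjusted p = 0.000665) in miR-322/-503 cells. Of 14 muscle markers, 8 rose and 1 fell, where 13.2% of all tested genes rose and 15.5% fell. The summed level of the 14 was between 5133 and 5600 CPM (counts scaled to library size) for the control and between 6652 and 6872 CPM with miR-322/-503. Of the markers of other cell types, 0 of 5 epithelial, 1 of 7 leukocyte (Cd68), 1 of 5 endothelial (Tek) and 2 of 6 neural markers (among them Tubb3) exceeded 1 CPM in some library. Summed levels were 2.59 to 3.92 CPM (control) against 3.86 to 4.28 CPM (miR-322/-503) for leukocyte markers, 1.03 to 1.30 against 3.75 to 5.07 for endothelial, 0 to 0.213 against 0.136 to 0.718 for epithelial and 50.3 to 53.2 against 104 to 117 for neural markers. At 0 in all libraries were 3 leukocyte, 1 endothelial, 1 epithelial and 1 neural marker. Tubb3, a tubulin best known from neurons, accounted for most of the neural sum and rose by 1.14 ± 0.06 (SE, log2, adjusted p = 1.85e-05), and Tek, an angiopoietin receptor, rose by 1.90 ± 0.19 (SE, adjusted p = 0.000342). Gfap, a neural marker of astrocytes named after its values were seen, fell by 2.54 ± 0.35 (SE, log2, adjusted p = 0.00155), with every library below 1 CPM, so that 1 neural marker rose and 1 fell of the 4 tested, with a median of -0.07. The part of these markers in the results below was not tested.

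All 10 genes had lower mean levels in miR-322/-503 cells. Of them, 8 fell with an adjusted p under 0.05 in the quasi-likelihood test of edgeR, adjusted by Benjamini-Hochberg across all tested genes, and 0 rose, where 15.5% of all tested genes fell and 13.2% rose. Egr1, Egr2, Nr4a1 and Ier2 also passed the study's cut-off of a log2 fold change below -1, which 5.29% of tested genes did. In CPM, every miR-322/-503 library lay below every control library in 9 of the 10 genes, as in 23.5% of tested genes. Ier5 was the exception, and in TPM, the deposited level corrected for transcript length, the groups of Nr4a3 overlapped as well. The median log2 fold change of the 10 genes was -0.98 and that of all tested genes was -0.01. Their summed level was 1239, 1306 and 1235 CPM in the control and 408, 434 and 351 CPM in the miR-322/-503 libraries. In bulk RNA, fewer cells that express a gene and less of its RNA per cell cannot be told apart.

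**Figure D1:**
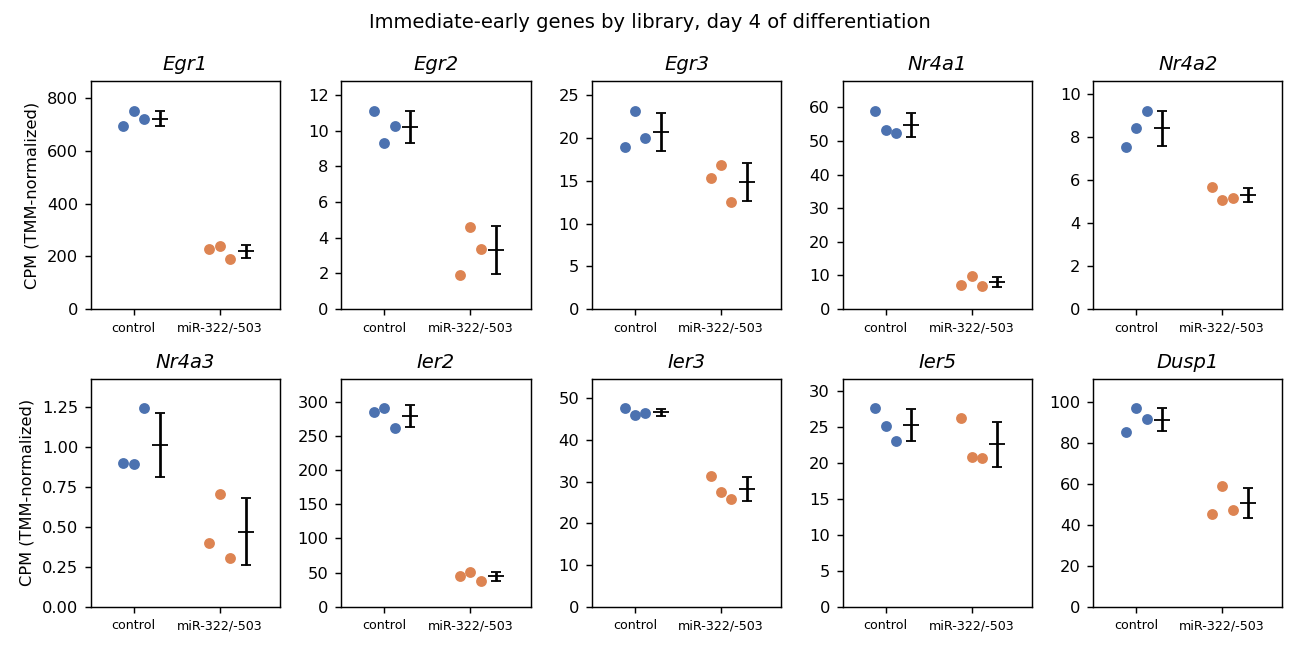
Level of each of the 10 genes (y axis, CPM with TMM normalization, each panel on its own scale from 0) in the 3 control (blue) and 3 miR-322/-503 libraries (orange); the bar beside the points is the mean ± SD. The groups are apart in every panel but that of Ier5, where the highest miR-322/-503 library (26.2 CPM) lies among the controls (23.0 to 27.5 CPM).

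Nr4a1 showed the lowest log2 fold change of the 10. It is the best-studied of the orphan receptors and lies at chr15:101254269-101274795 on the plus strand of GRCm38. Its level was 59.0, 53.3 and 52.3 CPM in the control and 7.26, 9.71 and 6.93 CPM in the miR-322/-503 libraries. The groups were far apart, with miR-322/-503 at 14.5% of the control level. The log2 fold change was -2.79 ± 0.14 (SE; 95% interval -3.12 to -2.45; n = 3 per group; edgeR quasi-likelihood test, adjusted p = 1.32e-05), and 1.58% of tested genes had a lower one.

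Nr4a2 (chr2:57106830-57124003, minus strand), known for its role in dopaminergic neurons, changed less. It was at 7.56, 8.43 and 9.23 CPM in the control and at 5.68, 5.09 and 5.15 CPM in the miR-322/-503 libraries, which did not overlap. It fell by 0.66 ± 0.12 on the log2 scale (SE; 95% interval -0.94 to -0.38; edgeR quasi-likelihood test, adjusted p = 0.00535). Nr4a3 (chr4:48045153-48086447, plus strand), the third receptor of the family, had the lowest level of the 10 genes. Its estimated counts were 70, 74 and 105 for the control and 38, 53 and 23 with miR-322/-503, which is 0.904, 0.896 and 1.24 CPM against 0.399, 0.707 and 0.306 CPM. The groups did not overlap in CPM, but did in TPM, at 0.303, 0.952 and 0.726 TPM in the control against 0.134, 0.644 and 0.264 TPM. Its log2 fold change of -1.11 ± 0.38 (SE; 95% interval -1.99 to -0.23) did not pass the test (edgeR quasi-likelihood test, adjusted p = 0.0648). Without miR-322/-503 replicate 2, the highest library of its group, it did (adjusted p = 0.0254), as it did with at least 10 counts asked of every library (0.0476) and with counts divided by 4 (0.0409), in a range over 14 alternatives of 0.0254 to 1.

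Egr1 was the most abundant of the 10 genes in CPM. In mean TPM, Ier2 was higher in the control (348 against 306) and Egr1 with miR-322/-503 (92.3 against 55.3). Egr1 is the member of its family that serum induces most widely across cell types, and lies at chr18:34859823-34864984 on the plus strand. It was at 695, 753 and 719.9 CPM in the control and at 229, 239 and 192 CPM in the miR-322/-503 libraries. The lowest control library was thus well above the highest miR-322/-503 library, and the mean was 30.4% of control. The log2 fold change was -1.72 ± 0.09 (SE; 95% interval -1.93 to -1.50; n = 3 per group; edgeR quasi-likelihood test, adjusted p = 1.64e-05).

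Egr2 (chr10:67535475-67542188, plus strand), a factor of hindbrain and Schwann cell development, had a fold change like that of Egr1 at a far lower level. It was at 11.1, 9.33 and 10.2 CPM in the control and at 1.94, 4.63 and 3.39 CPM in the miR-322/-503 libraries. The miR-322/-503 libraries were spread over more than a 2-fold range but stayed below the controls. The log2 fold change was -1.63 ± 0.29 (SE; 95% interval -2.30 to -0.95; edgeR quasi-likelihood test, adjusted p = 0.00487). Tested against a log2 fold change of 1 rather than 0, it did not pass (adjusted p = 0.138; range over 16 alternatives 2.38e-08 to 0.138).

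Egr3 (chr14:70077203-70082614, plus strand), needed for muscle spindle formation, was the gene with the whole seed match shown above. It was at 19.0, 23.2 and 20.004 CPM in the control and at 15.3, 16.8 and 12.5 CPM in the miR-322/-503 libraries. The groups did not overlap, with the lowest control library at 19.0 CPM and the highest miR-322/-503 library at 16.8 CPM. The SD within each group was 2.19 CPM. It fell by 0.48 ± 0.13 on the log2 scale (SE; 95% interval -0.79 to -0.17; edgeR quasi-likelihood test, adjusted p = 0.0322). This call was lost when control replicate 2 (adjusted p = 0.0974), control replicate 3 (0.0616), miR-322/-503 replicate 1 (0.0688) or miR-322/-503 replicate 3 (0.0785) was left out, and the adjusted p ranged from 0.00675 to 1 over 16 alternatives.

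Ier2 (chr8:84661331-84662854, minus strand), which encodes a small nuclear protein, fell nearly as far as Nr4a1. It was at 286, 290.0 and 261 CPM in the control and at 45.5, 51.0 and 37.96 CPM in the miR-322/-503 libraries, 16.1% of control. The log2 fold change was -2.64 ± 0.12 (SE; 95% interval -2.91 to -2.37; edgeR quasi-likelihood test, adjusted p = 6.24e-06). Ier3 (chr17:35821684-35822923, plus strand), a stress-induced regulator of cell survival, differed by less. It was at 47.5, 46.0 and 46.3 CPM in the control, a narrow range, and at 31.4, 27.5 and 25.7 CPM in the miR-322/-503 libraries, all lower. It fell by 0.72 ± 0.09 on the log2 scale (SE; 95% interval -0.93 to -0.52; edgeR quasi-likelihood test, adjusted p = 0.000745).

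Ier5 (chr1:155096361-155099636, minus strand), which is linked to the activity of heat shock factor 1, was the only gene whose groups overlapped in CPM. It was at 27.5, 25.1 and 23.0 CPM in the control and at 26.2, 20.8 and 20.7 CPM in the miR-322/-503 libraries. Its log2 fold change of -0.16 ± 0.12 (SE) did not pass the edgeR quasi-likelihood test (adjusted p = 0.376), and the 95% interval ran from -0.44 to 0.12. It was -0.28 without miR-322/-503 replicate 1, -0.11 without replicate 2 and -0.10 without replicate 3 of that group, and -0.09 without control replicate 1, and it did not pass in any of these fits.

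Dusp1 (chr17:26505590-26562128, minus strand), the phosphatase that dephosphorylates MAP kinases and is itself induced by them, was at 85.5, 96.8 and 91.7 CPM in the control and at 45.4, 59.2 and 47.3 CPM in the miR-322/-503 libraries. The groups did not overlap, and the mean was 55.4% of control. The log2 fold change was -0.85 ± 0.11 (SE; 95% interval -1.10 to -0.60; edgeR quasi-likelihood test, adjusted p = 0.000973). The annotated span of Dusp1 overlaps the start of Ergic1 on the opposite strand, a gene at 116 CPM in the control and 218 CPM in the miR-322/-503 libraries (log2 fold change 0.91, adjusted p = 0.0129). Whether the counting used strand is not given in the sources used here, so reads in the overlap could have been assigned to either gene.

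**Figure D2:**
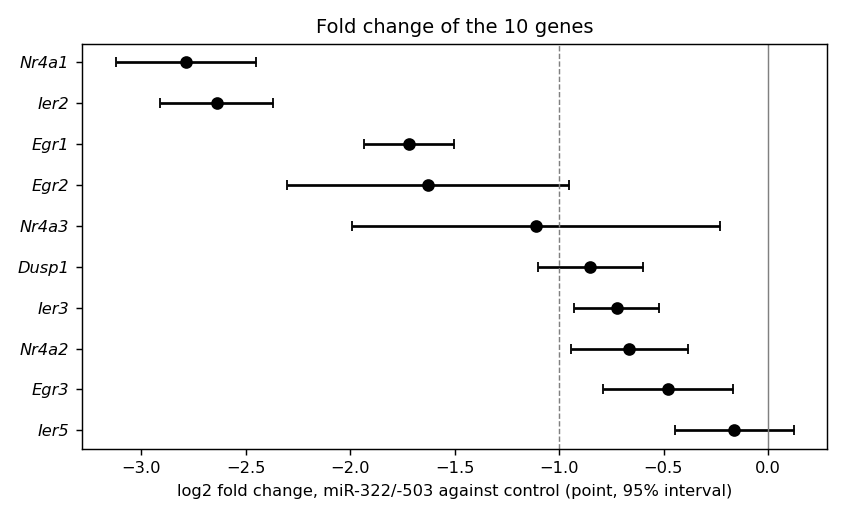
Log2 fold change of each of the 10 genes, miR-322/-503 against control (x axis), with its 95% interval from edgeR's quasi-likelihood fit (3 libraries per group); the dashed line marks -1 and the solid line 0. Nr4a1 (-2.79) and Ier2 (-2.64) stand lowest, the intervals of Egr2 and Nr4a3 are the widest, and only that of Ier5 reaches 0.

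The genes of each family were next compared with each other in TPM, a level corrected for transcript length. Egr1 made up 94.6% ± 0.1 (SD, n = 3) of the summed Egr TPM in the control and 90.1% ± 0.8 in miR-322/-503 cells. Egr3 made up 3.34% ± 0.18 and 7.80% ± 0.13, and Egr2 2.07% ± 0.21 and 2.12% ± 0.68. The share of Egr3 was therefore higher in every miR-322/-503 library than in any control, while the share of Egr2 overlapped between the groups (exact two-sided permutation test, p = 0.9). The summed Egr level was 315, 335 and 321 TPM in the control and 108, 114 and 85.1 TPM in the miR-322/-503 libraries.

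The Nr4a genes shifted further. Nr4a1 made up 89.9% ± 0.6 (SD, n = 3) of the summed Nr4a TPM in the control and 64.4% ± 5.2 in miR-322/-503 cells, and Nr4a2 9.08% ± 0.22 and 32.4% ± 7.2. Nr4a3 made up 1.01% ± 0.54 and 3.15% ± 2.01, with overlapping groups (exact two-sided permutation test, p = 0.2), and the difference of 2.13 percentage points was 1.07 without miR-322/-503 replicate 2. The summed Nr4a level went from 72.2, 64.4 and 63.6 TPM to 10.4, 12.2 and 9.16 TPM, so the larger share of Nr4a2 stands beside a lower level of Nr4a2 itself, 6.06 ± 0.46 TPM in the control and 3.39 ± 0.65 TPM in miR-322/-503 cells. Among the Ier genes, Ier2 made up 78.9% ± 0.8 in the control and 47.9% ± 3.7 in miR-322/-503 cells, Ier3 17.8% ± 0.8 and 40.8% ± 2.5, and Ier5 3.32% ± 0.19 and 11.3% ± 1.2. Taken over estimated counts, which are not corrected for length, the share of Ier5 differed by 16.4 rather than 7.94 percentage points and that of Ier3 by 16.2 rather than 23.0. Apart from Egr2 and Nr4a3, the shares did not overlap between the groups and gave p = 0.1 each, which is the smallest p that an exact permutation test of 3 against 3 libraries allows.

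**Figure D3:**
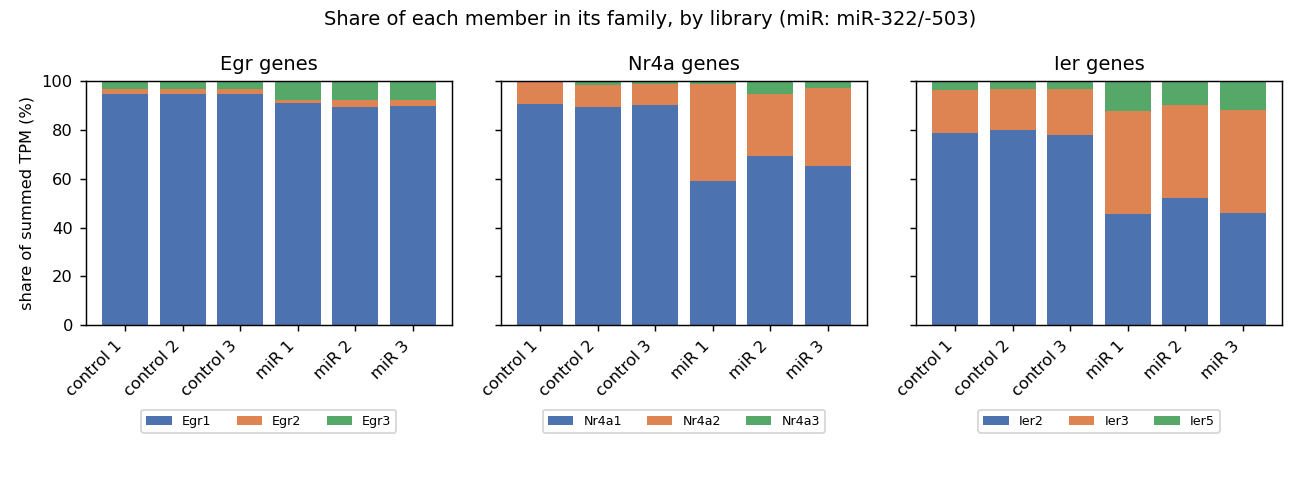
Share of each gene (y axis, % of the summed TPM of its family) in the 6 libraries (x axis; miR stands for miR-322/-503), in 1 panel per family; the stacked bars add to 100%. The first gene of each family, Egr1, Nr4a1 or Ier2 (blue), takes a smaller part of every miR-322/-503 bar than of any control bar, from 89.9% to 64.4% on average for Nr4a1.

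The log2 ratio of 2 genes within a library does not depend on how the libraries were scaled, and 9 such pairs were compared. The ratio of Egr1 to Egr2 was alike on average, 6.14 in the control (5.96 to 6.33) and 6.13 in miR-322/-503 cells (5.69 to 6.88), on a log2 scale of CPM that is not corrected for length (exact permutation test, p = 1). That of Egr1 to Egr3 went from 5.13 (5.02 to 5.19) to 3.89 (3.83 to 3.94), and that of Nr4a1 to Nr4a2 from 2.71 (2.50 to 2.96) to 0.57 (0.36 to 0.93). Ratios of Ier2 also dropped, by 1.92 against Ier3 and by 2.48 against Ier5. In 7 of the 9 pairs the groups did not overlap (exact permutation test, p = 0.1, 0.129 after Benjamini-Hochberg adjustment over the 9 pairs). The groups overlapped for Egr1 with Egr2 and for Nr4a2 with Nr4a3 (exact permutation test, p = 0.4, adjusted 0.45).

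Of 56 other immediate-early genes, 55 were tested, since Egr4 was at 0 in all libraries. At an adjusted p under 0.05, 22 fell and 14 rose, where 15.5% of all tested genes fell and 13.2% rose. The median log2 fold change of the 55 was -0.30. Of the 55, 11 fell below -1, where 5.29% of all tested genes did. None rose above 1, where 832 of 18140 tested genes did. The AP-1 subunits Fosb and Fos fell furthest. Fosb was at 259, 320.3 and 273 CPM in the control and at 5.96, 8.24 and 4.49 CPM in the miR-322/-503 libraries (log2 fold change -5.51 ± 0.24, SE, adjusted p = 5.95e-06), and Fos went from a mean of 337 to 25.6 CPM (-3.72 ± 0.17, adjusted p = 7.99e-06). Both fell further than any of the 10 genes. They were followed by Rgs2, a regulator of G protein signalling (-2.11 ± 0.14, SE, adjusted p = 4.20e-05), Junb, an AP-1 partner of Fos proteins (-2.04 ± 0.10, adjusted p = 1.01e-05), Zfp36, which promotes decay of short-lived mRNAs (-1.92 ± 0.10, adjusted p = 1.12e-05), and Ccn1, a secreted matrix protein (-1.72 ± 0.06, adjusted p = 3.27e-06).

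Of 17 MAP kinase feedback genes, 7 rose and 2 fell, where 13.2% of all tested genes rose and 15.5% fell. The median of the 17 was 0.15. It was 0.42 and 0.46 with limma on log2(TPM + 1) and log2(TPM + 0.1), 0.38 with counts divided by 4 and 0.09 without control replicate 1. Dusp10 (1.45 ± 0.10, SE, adjusted p = 5.43e-05), Dusp4 (1.23 ± 0.09, adjusted p = 6.46e-05) and Dusp14 (1.09 ± 0.17, adjusted p = 0.00284), phosphatases of the same class as Dusp1, rose. The 2 feedback genes that fell were Dusp7, a phosphatase of that class too (-0.66 ± 0.07, SE, adjusted p = 0.000433), and Spry3, a gene of the Sprouty family (-1.41 ± 0.43, adjusted p = 0.0433), both named after their values were seen, and with DESeq2 only 1 feedback gene fell. Dusp10 went from 25.9, 31.6 and 29.6 CPM in the control to 78.4, 87.4 and 71.8 CPM, so its groups were apart in the opposite direction. Of 35 upstream kinases and transcription factors, 10 rose and 3 fell, with a median of 0.11 that was 0.06 and 0.07 in the same limma fits. Mef2c, a muscle transcription factor, rose by 3.61 ± 0.21 (SE, adjusted p = 2.23e-05) and the kinase gene Rps6ka3 by 1.06 ± 0.13 (adjusted p = 0.00089), and Rps6ka5, whose kinase acts on CREB and histone H3, fell by 0.96 ± 0.16 (adjusted p = 0.00319).

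Srf, the gene of serum response factor, did not pass the test, with a log2 fold change of 0.11 ± 0.06 (SE; 95% interval -0.03 to 0.26; adjusted p = 0.22). Mapk3, the gene of a MAP kinase whose activity was not measured here, had 0.02 ± 0.06 (95% interval -0.13 to 0.16; adjusted p = 0.875). Of the 5 genes of proteins that bind Egr or Nr4a proteins, 4 were tested and 2 of them fell, as did 15.5% of all tested genes. Nab2, a corepressor that Egr proteins induce, fell by 0.30 ± 0.06 (SE, adjusted p = 0.00612), and its relative Nab1 had a log2 fold change of -0.09 ± 0.05 (95% interval -0.22 to 0.04; adjusted p = 0.289).

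**Figure D4:**
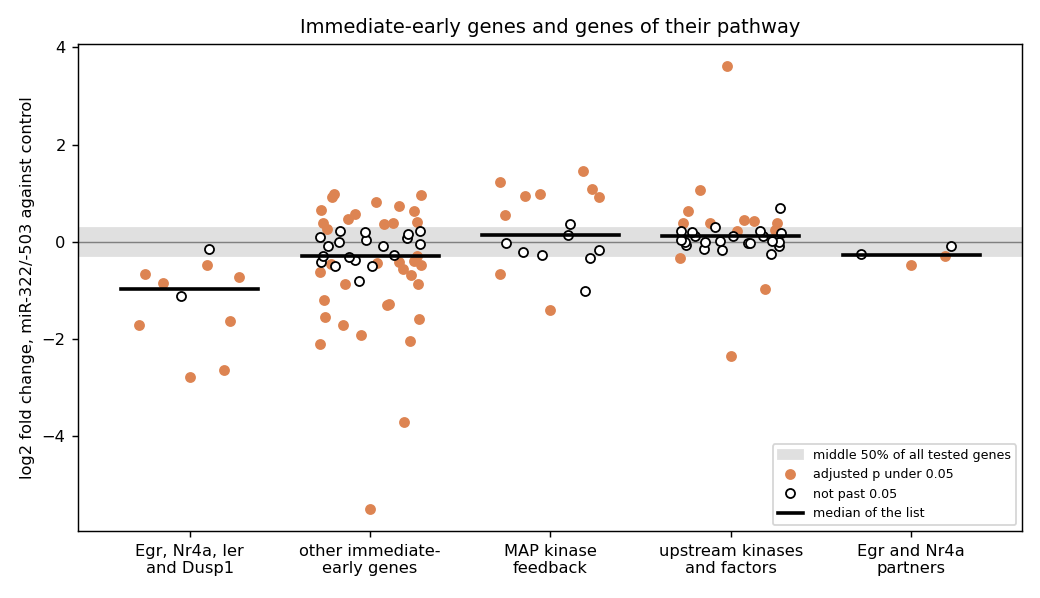
Log2 fold change, miR-322/-503 against control (y axis), of every tested gene (points) in the 5 lists (x axis); filled points have an adjusted p under 0.05, the horizontal bar is the median of the list and the grey band holds the middle 50% of all tested genes. The 10 genes all lie below 0 (median -0.98), the other immediate-early genes spread in both directions around -0.30, and the feedback and upstream lists have medians above 0 (0.15 and 0.11).

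The genes whose pattern was most like that of Egr1 were found by the root mean square difference in log2 CPM, centred on the control mean, over the 6 libraries and among the 9662 genes whose mean reached 10 CPM. The nearest were Plscr2 (0.0665), Adgrl1 (0.0773), Hgf (0.0840), Fbln1 (0.0911) and Ccn1 (0.0922). Among them are the growth factor Hgf, the matrix proteins Fbln1 and Ccn1, and the receptor Adgrl1, and of the 5 only Ccn1 is on the lists of immediate-early genes.

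Neighbours on the chromosome were compared because the groups are separate stable lines. Within 5 Mb on each side, the median log2 fold change of the tested neighbours lay between -0.12 (Egr3) and 0.17 (Nr4a2) for 9 of the 10 genes, and between -0.18 and 0.30 within 2 Mb and -0.06 and 0.14 within 10 Mb. Around Ier2 it was -0.79 over 120 genes, of which 89.2% were below 0, and -0.86 within 2 Mb and -0.69 within 10 Mb. The log2 fold change of Ier2 minus that median was -1.85. Junb, on chromosome 8 at chr8:84974484-84978718, is one of these neighbours. The part of its neighbourhood in the change of Ier2 was not tested.

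**Figure D5:**
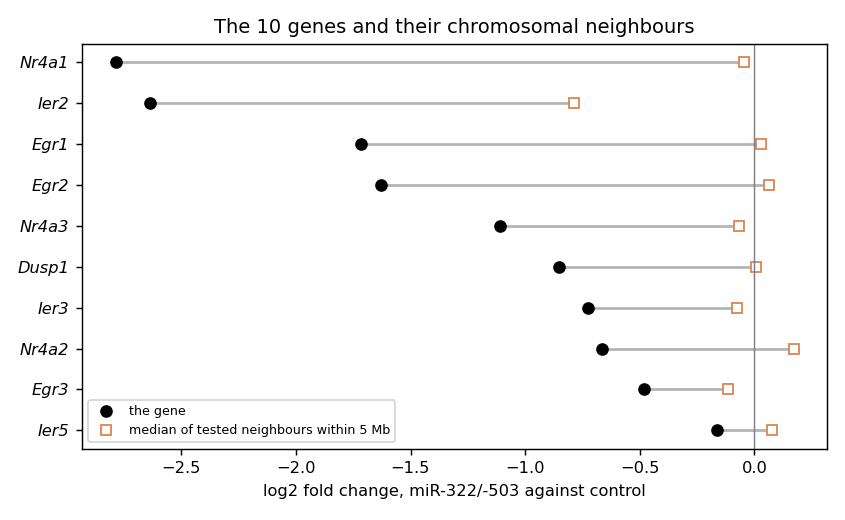
Log2 fold change, miR-322/-503 against control (x axis), of each of the 10 genes (black points) and the median of the tested genes within 5 Mb on each side (open squares). The squares lie near 0 for 9 genes and at -0.79 for Ier2.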

How the data were processed

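RNA-seq was performed on 6 libraries, 3 control and 3 miR-322/-503. Per the submitters' processing notes and the study's methods, reads were filtered (Trim Galore), mapped to GRCm38 (HISAT2) and quantified per gene (StringTie) by the authors; versions and strand settings are not given in the sources used here. The deposited table held estimated counts per gene, deposited as whole numbers and not normalized, with an unstated number of counts per read pair. The TPM values deposited per library were used for levels between genes and for alternatives, and the FPKM and coverage values that the authors also deposited were not used. Gene positions are those of the deposited tables. Expected counts were filtered and TMM-normalized, fitted and tested with edgeR 4.0.16 (filterByExpr, glmQLFit and glmQLFTest, R 4.3.3) and adjusted by Benjamini-Hochberg over 18140 genes. A gene fell or rose at an adjusted p under 0.05, and the study's cut-off adds an absolute log2 fold change above 1. SE was the log2 fold change over the root of F. DESeq2 1.42.0, the study's tool, and limma 3.58.1 on log2(TPM + 1) and log2(TPM + 0.1) were alternatives, as were other normalizations, filters, a test against a log2 fold change of 1, counts divided by 4, and leaving out each library. The edgeR and DESeq2 fits, but not limma, were also run on simulated counts, and the outcome is not reported here.

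The 10 genes and the gene lists were chosen with earlier results of these data known, and no p was adjusted over a list. Named were the 10 genes, Nab1, Nab2, Srf and Mapk3, the 6, 3 and 3 genes with the largest absolute log2 fold change of the other immediate-early, feedback and upstream lists that passed the test, had groups apart and reached a mean of 1 CPM in the higher group, the 5 genes nearest to Egr1, Myod1, Myog and markers of other cell types above 1 CPM; some genes that this rule names are not reported here. Ergic1, Egr4 and the precursor genes were added after their values were seen. The study's methods name biological and technical replicates for its assays in general; the labels do not tie each library to a culture of its own, and where libraries share one, p-values measure only the technical spread between them. The replicate numbers come from the labels and were not taken as pairs. Deviations of same-numbered libraries correlated with r = 0.131, 0.0687 and 0.0451, and those of unlike-numbered libraries with -0.108 to 0.0401. Sequences come from RefSeq (GRCm38.p6) and the GRCm38 genome.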

Additional observations from a re-analysis of the deposited data

How the results depend on the processing

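Over 158 values of the 10 genes' log2 fold changes under the alternatives, 144 kept their direction and their side of the threshold, 11 lost the call, 3 gained it and 0 reversed. Egr3 lost it in 7 of 16 alternatives, with log2 fold changes of -0.58 to -0.37 over all leave-one-out fits. The test against a log2 fold change of 1 asks for more than a change, and fewer genes passed it: 3 of the 10 genes lower, 9 other immediate-early genes lower and 0 higher, 0 feedback genes lower and 1 higher, 1 upstream gene lower and 1 higher, 0 partners lower, and 530 genes lower and 396 higher in all, against 959 and 832 with both study cut-offs. limma on TPM gave 564 lower and 388 higher with a pseudocount of 1, and 727 lower and 530 higher with 0.1. It gave 6 upstream genes higher with both, and the cause was not tested. Of the feedback genes, 1 fell, in place of 2, with DESeq2, without the filter, with limma at both pseudocounts and with counts divided by 4, and 1 to 2 when a library was left out. The difference in the share of Egr2, 0.058 percentage points, ran from -0.19 to 0.45 when a library was left out, reversing at -0.037 without control replicate 2, -0.19 without miR-322/-503 replicate 2 and -0.084 without miR-322/-503 replicate 3; its groups overlapped in the full data. Numbers called lower among the 10 genes at an adjusted p under 0.05 ran from 7 to 9 over the leave-one-out fits. With the replicate number as a block, 8 of the 10 genes fell, 893 genes were called lower and 747 higher, and no call of the 10 genes changed. Own-number correlations of the libraries were 0.131, 0.0687 and 0.0451, and those between unlike numbers ran from -0.108 to 0.0401. Whether same-numbered libraries share a batch was not tested. Intervals cover the spread of 3 libraries only.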

Other observations

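Within the miR-322/-503 group, replicate 2 had the highest level in 7 of the 10 genes and replicate 3 the lowest in 7. Over all tested genes replicate 2 was highest in 34.0%, and replicate 3 was lowest in 6314 of 18140. In the control group no library was highest in more than 4 of the 10 genes.

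Several genes of the immediate-early list rose. They were chosen after their values were seen. Klf2, a zinc finger factor of quiescent cells, rose by 0.98 ± 0.09 on the log2 scale (SE), Tiparp, a target of the aryl hydrocarbon receptor, by 0.96 ± 0.13, Sik1, a kinase that CREB induces, by 0.92 ± 0.12, Rhob, a small GTPase, by 0.82 ± 0.06 and the AP-1 subunit Jun by 0.57 ± 0.08, each with an adjusted p under the threshold in edgeR's quasi-likelihood test and with no overlap between the groups. Jun was at 376, 403 and 347 CPM in the control and at 597, 533 and 547 CPM in the miR-322/-503 libraries, while Fos, Fosb and Junb fell. Of other AP-1 genes, Fosl1 rose by 0.36 ± 0.08 (SE, adjusted p = 0.0118) and Atf3 by 0.65 ± 0.16 (adjusted p = 0.0211), and Fosl2 had a log2 fold change of 0.15 ± 0.05 that did not pass (adjusted p = 0.0685).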
